A study of Mus musculus with 2 samples.

Results

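Later-intron distal peaks are stretches of open chromatin inside genes, away from the first intron and from every start site. They were chosen by position alone. A broad peak of either list was a member when its midpoint lay in the second or a later intron of the longest transcript of a protein-coding gene, and when its nearest edge was more than 1000 bp from every annotated transcript start (GENCODE annotation of mouse assembly mm9). The control list held 20084 members among 90445 peaks (22.2%) and the Taf4-inactivated list 14752 among 71282 (20.7%), so that 34836 of 161727 peaks were members over both lists. The annotation offered 158627 later introns in 16852 protein-coding genes, with 590 Mb of later-intron sequence outside the zones around start sites.

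The peaks came from ATAC-seq, in which a transposase inserts adapters into accessible DNA, on enteroids, which are epithelial cultures grown from crypts of the mouse ileum. Mice were 4 months old and of the C57Bl6/129sv background. Taf4 encodes a subunit of TFIID, the general factor that places RNA polymerase II at promoters, and the comparison asks how accessibility differs shortly after its loss. The control library came from enteroids with floxed Taf4 alleles (Taf4 lox/lox) and no Cre, labelled WT. The Taf4-inactivated library came from enteroids with the same floxed alleles plus VilCreER T2, a tamoxifen-inducible Cre driven by the villin promoter of intestinal epithelium, and is labelled KO. Both cultures received 1 µM 4-OHT, the active form of tamoxifen, for 3 days. There was 1 library per genotype, so no test between genotypes was possible, and every difference below describes these 2 libraries. All intervals are 95% intervals and cover counting error only. In bulk cultures, fewer cells with an open region and a less open region in each cell cannot be told apart.

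Distal introns hold many of the enhancers of a genome, where sequence-specific factors such as AP-1, GATA factors and HNF4 bind, and they hold sites for CTCF, the factor that anchors chromatin loops. In intestinal epithelium, HNF4 factors drive enterocyte genes, and GATA factors set regional identity along the gut. Intronic enhancers can act on the host gene or on another gene, so a peak inside a gene is not by itself a measure of that gene's activity.

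The sequences of the strongest members are printed as single examples from the top of each list. Each line gives the 200 bases centred on the midpoint of a peak, on the plus strand of mm9, with capitals where a searched recognition sequence matched. The letters searched, on both strands, were TGANTCA for AP-1, CAAAGTCCA for HNF4, AGATAA for GATA factors and GGGCGG for SP/KLF factors, plus a 12-letter pattern for CTCF. The first set holds the members with a partner in the other list, meaning a peak that overlaps by at least 1 bp, that had the highest fold enrichment in either list.
Chl1, chr6:103599069-103599268: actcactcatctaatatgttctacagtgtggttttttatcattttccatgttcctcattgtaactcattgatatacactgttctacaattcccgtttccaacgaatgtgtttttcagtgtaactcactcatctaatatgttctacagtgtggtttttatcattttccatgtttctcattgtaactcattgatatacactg
Gphn, chr12:79451886-79452085: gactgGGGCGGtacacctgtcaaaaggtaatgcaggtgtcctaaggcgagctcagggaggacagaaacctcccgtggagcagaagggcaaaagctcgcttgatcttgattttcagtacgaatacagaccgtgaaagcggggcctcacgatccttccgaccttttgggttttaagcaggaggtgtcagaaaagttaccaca
Dlgap2, chr8:14306856-14307055: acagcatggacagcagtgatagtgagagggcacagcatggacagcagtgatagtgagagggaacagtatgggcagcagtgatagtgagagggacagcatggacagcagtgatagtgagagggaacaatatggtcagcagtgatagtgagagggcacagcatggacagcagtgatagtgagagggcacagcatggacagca
Anubl1, chr6:116236961-116237160: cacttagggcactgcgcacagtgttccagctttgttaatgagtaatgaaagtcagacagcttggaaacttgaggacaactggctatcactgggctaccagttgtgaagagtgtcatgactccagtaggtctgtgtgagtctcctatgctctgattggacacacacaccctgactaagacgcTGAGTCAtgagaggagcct

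The peak in the fourth intron of Chl1, which encodes a neural adhesion molecule, had the highest fold enrichment among members of both lists, at 10.1 in the control list and 14.2 in the Taf4-inactivated list. The peak in the second intron of Gphn, encoding the synaptic scaffold gephyrin, came next in both, at 5.88 and 9.20. The member in the third intron of Dlgap2 reached 5.42 in the control list and its partner 5.59, and the member in the fourth intron of Anubl1 reached 6.80 in the Taf4-inactivated list and its partner 4.22. The Dlgap2 window repeats itself. Shifted by 123 bases it was 92.2% identical to itself, and the Chl1 window was 63.8% identical to itself at a shift of 120 bases. In the windows of Gphn, Anubl1 and the 6 members without a partner shown here, the closest such self-match was between 35.7 and 41.6%. The central 50 bases of the Gphn window occurred 2 times in the assembly, and those of the other windows shown occurred 1 time. Only exact copies in the assembly were counted, so whether these windows match repeats found elsewhere in the genome was not tested. The high fold at Chl1, Gphn and Dlgap2 therefore need not mean open chromatin in these introns. The Chl1 and Dlgap2 windows held no searched sequence, the Gphn window shown, that of the control peak, held an SP/KLF match that the window of its Taf4-inactivated partner, centred a few bases away, did not hold, and the Anubl1 window an AP-1 match.

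Among control members lacking a partner, fold enrichment was highest in Srgap1, which encodes a GTPase-activating protein of the Slit-Robo pathway, in Large, a glycosyltransferase gene, and in Boll, an RNA-binding protein gene of germ cells.
Srgap1, chr10:121310240-121310439: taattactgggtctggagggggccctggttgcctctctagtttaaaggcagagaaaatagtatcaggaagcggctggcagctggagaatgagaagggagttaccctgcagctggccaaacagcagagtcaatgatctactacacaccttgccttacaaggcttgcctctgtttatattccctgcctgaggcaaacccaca
Large, chr8:75557919-75558118: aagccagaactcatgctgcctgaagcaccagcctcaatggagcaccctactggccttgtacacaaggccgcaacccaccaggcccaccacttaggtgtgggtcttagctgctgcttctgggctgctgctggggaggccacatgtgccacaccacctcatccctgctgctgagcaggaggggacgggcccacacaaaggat
Boll, chr1:55352999-55353198: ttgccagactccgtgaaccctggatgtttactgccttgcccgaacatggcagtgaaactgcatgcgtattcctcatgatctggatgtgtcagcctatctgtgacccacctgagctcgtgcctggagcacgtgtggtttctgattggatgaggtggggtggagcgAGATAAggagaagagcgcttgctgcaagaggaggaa

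Their fold enrichment was 3.06 for Srgap1, 2.96 for Large and 2.95 for Boll, at percentiles 96.6, 95.7 and 95.6 of the control list. The nearest Taf4-inactivated peak was 16611 bp from the Srgap1 member, 1256 bp from the Large member and 53532 bp from the Boll member. Among these 3 windows, the Boll window held a GATA match and the others held none of the searched sequences.

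Among Taf4-inactivated members lacking a partner, fold enrichment was highest in Pgm1, encoding phosphoglucomutase, in Ces1a, a carboxylesterase gene, and in Macrod2, an ADP-ribose hydrolase gene.
Pgm1, chr5:64503728-64503927: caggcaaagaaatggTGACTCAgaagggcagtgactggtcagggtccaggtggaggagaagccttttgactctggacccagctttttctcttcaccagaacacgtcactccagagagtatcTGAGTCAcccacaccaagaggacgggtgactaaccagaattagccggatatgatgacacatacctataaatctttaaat
Ces1a, chr8:95554582-95554781: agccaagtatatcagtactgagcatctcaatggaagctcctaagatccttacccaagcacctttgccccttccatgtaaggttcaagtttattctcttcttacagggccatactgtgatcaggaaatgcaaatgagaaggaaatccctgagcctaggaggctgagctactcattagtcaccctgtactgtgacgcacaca
Macrod2, chr2:140616228-140616427: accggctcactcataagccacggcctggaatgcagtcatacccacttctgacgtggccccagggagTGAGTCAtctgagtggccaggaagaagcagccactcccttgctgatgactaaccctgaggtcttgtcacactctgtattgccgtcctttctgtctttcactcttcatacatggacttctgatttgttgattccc

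Their fold enrichment was 4.72 for Pgm1, 4.60 for Ces1a and 4.58 for Macrod2, at percentiles 98.1, 97.7 and 97.6 of that list. The nearest control peak was 1548, 16637 and 26706 bp away, in the same order. The Pgm1 window held 2 AP-1 matches, the Macrod2 window held 1, and the Ces1a window held no searched sequence. Fold enrichment is the authors' ratio of a peak over the background of its own library, so it was compared between lists only as a percentile within a list.

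Most control members had no partner after Taf4 inactivation, whereas members of the Taf4-inactivated list were about as often with as without one. A partner was found for 6986 of 20084 control members (34.8%, exact Clopper-Pearson interval 34.1 to 35.4) and for 7078 of 14752 Taf4-inactivated members (48.0%, 47.2 to 48.8). Overlap is mutual, so the numbers with a partner are close by construction and the longer list has the lower share. Over all peaks these shares were 47.3% in the control list and 60.2% in the Taf4-inactivated list. Among control distal peaks, first-intron peaks had a partner in 43.4% (42.2 to 44.5), exonic peaks in 38.1% (36.6 to 39.5) and intergenic peaks in 39.7% (39.2 to 40.2). After Taf4 inactivation they were 51.4% (50.1 to 52.7) in first introns, 62.7% (60.9 to 64.5) in exons and 51.7% (51.1 to 52.3) between genes. Later introns thus had the lowest share of these position classes in both lists, and the interval overlapped that of no other class shown. Where a member had a partner, the partner was itself a member in 93.8% of control and 92.8% of Taf4-inactivated cases. Merging the members of both lists gave 28245 separate regions, of which 6531 (23.1%) held members of both, 13528 (47.9%) of the control list alone and 8186 (29.0%) of the Taf4-inactivated list alone.

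**Figure D1:**
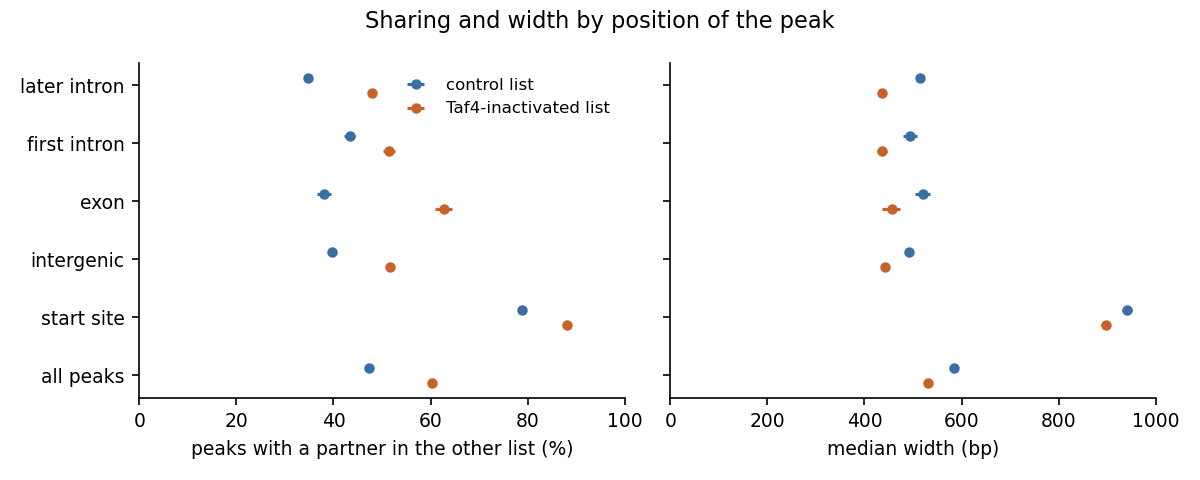
Share of peaks with a partner in the other list (left, percent) and median width (right, bp) by position of the peak, for the control and Taf4-inactivated lists. Points are values of 1 list and bars are 95% intervals, exact for the share and from order statistics for the median; later-intron peaks sit at 34.8 and 48.0%, the lowest share of each list, and at 515 and 437 bp.

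The control list held more members, but fewer of high significance. It had 1.36 times as many members as the Taf4-inactivated list, against 1.18 times for first-intron peaks, 1.29 times for intergenic peaks and 1.27 times for all peaks. From a −log10 q of 2 upward the order turned, with 7510 control and 7953 Taf4-inactivated members, and at 5 or more there were 762 (3.79% of members) and 2583 (17.5%). Over all peaks the order turned too, with 44495 control and 45640 Taf4-inactivated peaks from 2 upward. At 5 or more there were 10757 (11.9% of all peaks) and 20474 (28.7%), so this turn was common to both whole lists. Solving the peak caller's Poisson model for the background level behind the fold and p of narrow peaks gave 12.1 for control and 7.35 for Taf4 inactivation, a ratio of 1.65 that serves as an estimate of relative depth. The part of depth in these differences was not tested.

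The strongest control members nearly always had a partner. Of the 762 control members with a −log10 q of at least 5, 97.2% overlapped a Taf4-inactivated peak, and of the 2583 Taf4-inactivated ones 76.0% overlapped a control peak. The same shares over all peaks were 99.0 and 88.4%. In the weakest tier, with a −log10 q under 2, a partner was found for 24.0% of control and 37.6% of Taf4-inactivated members, beside 27.1 and 41.8% of all peaks in that tier. In decile 10 of each list by fold, the highest, 93.9% of control and 84.1% of Taf4-inactivated members had a partner, beside 97.6 and 94.3% of all peaks. In decile 4 the shares were 25.2 and 42.6%, beside 29.6 and 47.3% of all peaks, which include start sites. First-intron peaks were above members in every decile of the control list, but not in every decile of the Taf4-inactivated list. Intergenic peaks were not above members in every decile of either list. In decile 7 members had a partner in 35.5 and 48.5%, first-intron peaks in 48.2 and 54.8% and intergenic peaks in 38.5 and 53.8%. In decile 4, first-intron peaks stood at 29.7 and 38.5% and intergenic peaks at 25.8 and 41.8%. In decile 10 first-intron peaks stood at 96.0 and 86.8%, and intergenic peaks at 94.0 and 87.9%. With lists cut to the 20000 peaks of highest fold each, 46.7% of 2348 control members and 39.8% of 2754 Taf4-inactivated members had a partner, against 62.1% of all peaks in both.

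Later-intron peaks were wider in the control list. The median width was 515 bp (order-statistic interval 506 to 523, quartiles 304 and 854) in control and 437 bp (431 to 444, quartiles 284 and 740) after Taf4 inactivation, a ratio of 1.18 against 1.10 over all peaks. Members with a partner were wider than those without in both lists. In the control list the medians were 640 bp (625 to 654) with and 458 bp (449 to 467) without a partner, and in the Taf4-inactivated list 528 bp (519 to 540) and 358 bp (351 to 366). Widths of at least 1000 bp were reached by 3478 control members (17.3%) and 1689 Taf4-inactivated members (11.4%), and the widest members spanned 4219 and 3784 bp. The shares reaching 1000 bp were 23.5 and 19.5% over all peaks, and 17.2 and 12.3% over all distal peaks, near those of members. The narrowest members were least often shared. Under 300 bp, 23.0% of control and 30.1% of Taf4-inactivated members had a partner, and from 2000 bp on 72.0 and 89.2% did. Over all peaks the shares were 24.9 and 32.7% under 300 bp and 87.9 and 97.2% from 2000 bp on, so this trend was common to both whole lists.

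**Figure D2:**
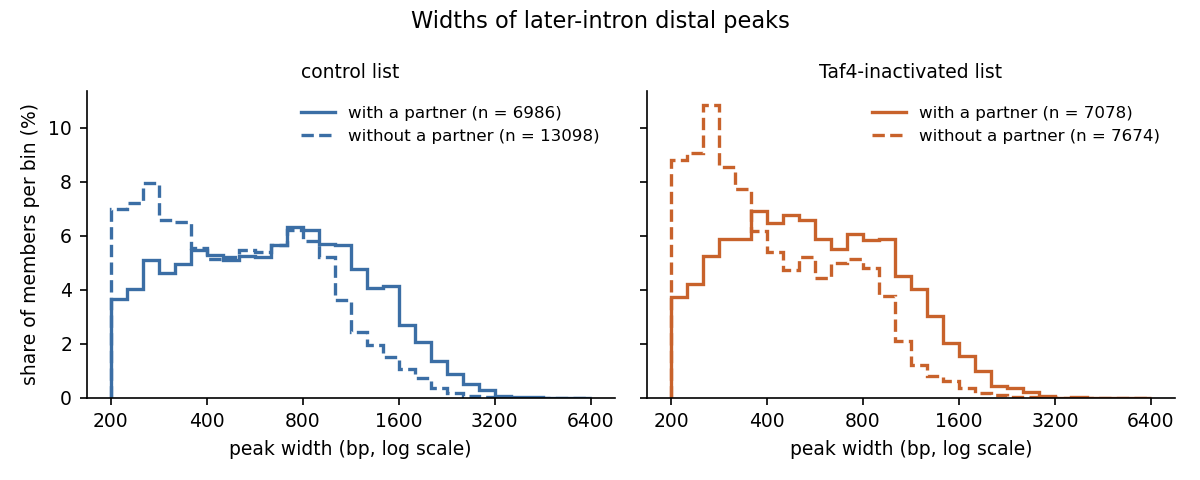
Widths of later-intron distal peaks with a partner (solid) and without (dashed) in the control list (left) and the Taf4-inactivated list (right). The x axis is width in bp on a log scale and the y axis the percent of that set per bin; sets without a partner peak below 300 bp, and medians are 640 and 458 bp in control and 528 and 358 bp after Taf4 inactivation.

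The same place could be compared in 6522 pairs of members that overlapped each other best. The median log2 width difference, Taf4-inactivated minus control, was −0.10 (order-statistic interval −0.126 to −0.077), against −0.07 over all 42491 pairs, and the control peak was the wider in 3621 pairs (55.5%). Over the 3542 pairs that shared at least 50% of both peaks the median was 0.003, but that rule removes every pair with a width ratio above 2. In 1407 pairs (21.6%) the control peak was at least 2 times as wide, where the background over all pairs was 17.1%, and in 754 pairs (11.6%) the Taf4-inactivated peak was, with a background of 9.08%. Percentiles of fold enrichment in paired members went together, with a Spearman rho of 0.63 across pairs, which is a description of 2 lists over the same genome. The median rank difference was −1.70 points. The Taf4-inactivated peak ranked at least 50 points higher in 178 pairs (2.73%, background 2.22%) and the control peak in 212 pairs (3.25%, background 3.2%), which is near the background.

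The pairs with the largest rank differences, among those sharing 50% of both peaks, lay in genes of varied roles. The peak in the second intron of Lrrc20, on chromosome 10 (60954779 to 60955147 in control), went from percentile 5.65 to 86.4, with a fold of 1.77 in control and 3.45 after Taf4 inactivation. A peak in the fourth intron of Pdgfa, encoding a growth factor ligand made by epithelia, went from percentile 4.97 to 84.9, and a peak in intron 41 of Cdh23, a cadherin gene, from 6.60 to 83.7. In the other direction, the peak in the fifth intron of Col4a2, a basement membrane collagen gene, went from percentile 87.1 to 6.34, with a fold of 2.46 and 2.04. A peak in the third intron of Foxp1, a forkhead factor gene, went from 92.55 to 15.9, and a peak in the second intron of Cyp4f39, a cytochrome P450 gene, from 86.5 to 13.1. Percentiles differ strongly here over small folds, because most peaks of a list have a fold near its median, 1.98 for control members and 2.34 for Taf4-inactivated members. Width ratios under this overlap rule cannot exceed 2, and the members at that limit lay in Trio, Arhgap22 and Sipa1l3 (wider after Taf4 inactivation) and in Slc9a8, Afap1 and Zbtb16 (wider in control).

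Recognition sequences were less common in control members without a partner than in Taf4-inactivated members without one, for AP-1, HNF4, CTCF and GATA. Control members without a partner held an AP-1 match in 5.79% of windows (exact interval 5.40 to 6.21), close to the 5.55% (5.32 to 5.78) of flanking windows 2000 bp beyond the edges of members. Taf4-inactivated members without a partner held one in 10.7% (10.04 to 11.4), with 5.58% in their flanks. Members with a partner stood at 9.79% for control and 10.4% for Taf4 inactivation, and all peaks at 6.46 and 8.79%. HNF4 matches followed the same order. They were in 0.305% (0.218 to 0.416) of control members without a partner, beside 0.281% of flanks, and in 1.36% (1.11 to 1.64) of Taf4-inactivated ones, beside 0.295% of flanks. All peaks held an HNF4 match in 0.542 and 1.10% of windows.

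CTCF matches stood in 0.328% (0.238 to 0.442) of control members without a partner and 1.79% (1.501 to 2.11) of Taf4-inactivated ones, with 0.182 and 0.200% in flanks and 0.657 and 1.62% over all peaks. For GATA, control members without a partner fell below their flanks, at 7.001% (6.57 to 7.45) against 10.1%, and Taf4-inactivated ones did not, at 11.1% (10.4 to 11.8) against 10.48%. Median GC of members without a partner was 52% in control and 50% after Taf4 inactivation, against 46.5% in flanks. The part of base composition in these shares was not tested. All peaks held a GATA match in 6.98 and 8.92%. SP/KLF matches, frequent at CpG-rich promoters, had overlapping intervals without a partner, at 4.97% (4.60 to 5.36) in control and 4.57% (4.12 to 5.07) after Taf4 inactivation. With a partner they were more common in both lists, at 6.28 and 7.49%. They were far below the 12.4 and 14.8% of all peaks, which include start sites.

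Width and significance moved with these shares. Among members without a partner of one width class, from 300 to under 500 bp, AP-1 matches were in 5.96% of 3289 control and 11.3% of 2124 Taf4-inactivated windows, and HNF4 matches in 0.213 and 1.79%. From 500 to under 1000 bp the lists were closer, with AP-1 matches in 6.08% (5.40 to 6.82) of 4440 control and 7.07% (6.03 to 8.23) of 2177 Taf4-inactivated windows. In that wider class HNF4 matches turned to 0.360 and 0.276%, and CTCF matches were in 0.383 and 0.413%. The intervals of the lists overlapped for AP-1, HNF4 and CTCF. For GATA they did not overlap, at 7.84% (7.06 to 8.67) in control and 10.47% (9.22 to 11.84) after Taf4 inactivation. Among those with a −log10 q under 2, AP-1 matches were in 5.75% (5.29 to 6.23) of 9552 control and 7.10% (6.34 to 7.91) of 4242 Taf4-inactivated windows, which is a smaller gap. In that tier HNF4 matches were in 0.283 and 0.542%, CTCF matches in 0.293 and 0.566% and GATA matches in 6.89 and 7.92%. For HNF4, CTCF and GATA the intervals of the lists overlapped there. From 2 to 5 the AP-1 shares were 5.84 and 13.3%. HNF4 matches then stood at 0.369 and 1.99%, CTCF matches at 0.426 and 3.52% and GATA matches at 7.26 and 13.7%, without overlap of intervals. A match is a description of letters and not of a bound factor.

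**Figure D3:**
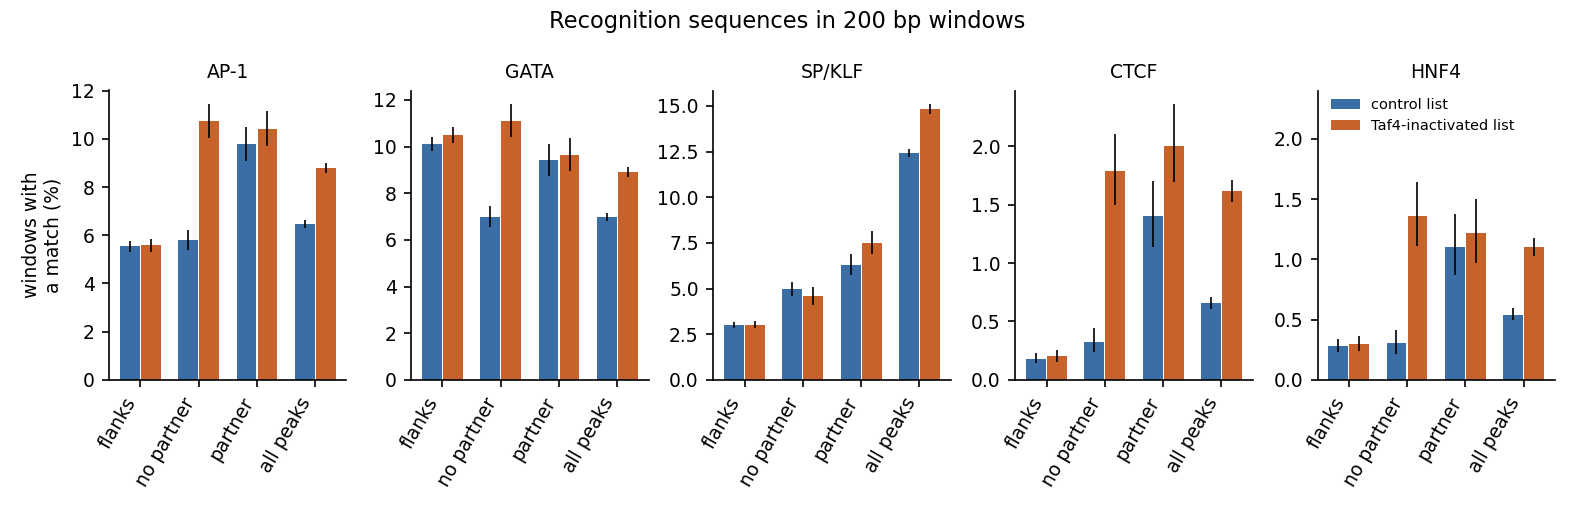
Percent of 200 bp windows with at least 1 match to each recognition sequence, in flanks of members, in members without and with a partner, and in all peaks, for the control and Taf4-inactivated lists. Bars are shares with exact 95% intervals and each panel has its own y axis from 0; for AP-1 and HNF4 the control members without a partner stand at the level of the flanks (5.79 and 0.305%), and the Taf4-inactivated ones do not (10.7 and 1.36%).

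Members with a match also differed in sharing. In the control list, 65.8% (56.5 to 74.3) of 117 members with an HNF4 match had a partner, against 34.6% of those without, and 69.5% (61.2 to 77.0) of 141 with a CTCF match, against 34.5%. For AP-1 these shares were 47.4% (44.8 to 50.02) of 1443 members and 33.8%. GATA matches went with 41.7 against 34.2% and SP/KLF matches with 40.3 against 34.5%. In the Taf4-inactivated list the widest difference was for SP/KLF matches, with 60.2% (56.8 to 63.4) of 881 members against 47.2%, and GATA matches went the other way, with 44.5% (42.02 to 47.1) of 1534 against 48.4%. There the shares were 45.3% (38.05 to 52.6) of 190 members with an HNF4 match against 48.0%, 50.9% (44.9 to 56.9) of 279 with a CTCF match against 47.9%, and 47.3% of 1561 with an AP-1 match against 48.1%. Members with an HNF4 match ranked high in both lists, at median percentile 60.6 and 70.7, beside 39.9 and 39.5 for members without one. Taf4-inactivated members with a CTCF match were narrow, with a median of 298 bp (288 to 311) against 442 bp.

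Later-intron peaks were richer in G and C than their surroundings. The median window had 52.5% GC in control and 51.0% after Taf4 inactivation, against 46.5% in the flanks of both lists and 42.4% over all later-intron sequence. Members without a partner had 52.0% GC in control and 50% after Taf4 inactivation, and members with a partner 52.5% in both. CpG dinucleotides were sparse, at a mean of 2.69 and 2.65 per 200 bp window, where start site peaks had 12.5 and 13.7. First-intron and intergenic peaks were much like members, with a median GC of 52% in control and 51% after Taf4 inactivation in both classes. Their mean CpG number was 2.77 and 2.72 in first introns and 2.75 and 2.94 between genes.

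Density along the gene was nearly level in the control list and went down in the Taf4-inactivated list. Density was 34.04 per Mb (exact Poisson interval 33.6 to 34.5) in control and 25.003 (24.6 to 25.4) after Taf4 inactivation, beside 35.4 and 30.1 in first introns and 22.2 and 17.2 between genes. From intron 2 to intron 21 and later it stayed between 32.6 and 34.9 per Mb in control, while in the Taf4-inactivated list it went from 26.9 (26.0 to 27.9) in intron 2 to 21.7 (20.4 to 23.0) in intron 21 and later. Sharing of control members went down along the gene, from 38.9% (37.4 to 40.4) in intron 2 to 28.6% (26.5 to 30.9) in intron 21 and later, and that of Taf4-inactivated members from 49.6% (47.9 to 51.3) to 44.6% (41.6 to 47.5). Short introns were the densest. Introns under 2 kb held 60.3 members per Mb in control and 37.2 after Taf4 inactivation, and introns of 100 kb or more 17.96 and 13.2.

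**Figure D4:**
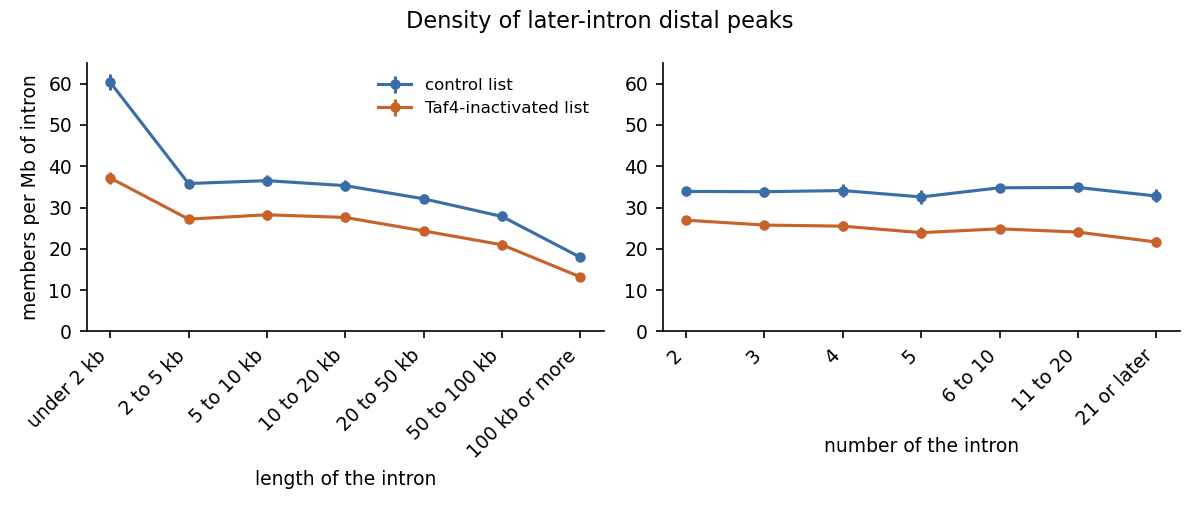
Later-intron distal peaks per Mb of intron outside start site zones, by length of the intron (left) and by number of the intron from the start of the gene (right). Points are 1 list each with exact Poisson 95% intervals and lines join the points; density runs from 60.3 to 17.96 per Mb in control and from 37.2 to 13.2 after Taf4 inactivation as introns get longer, and by intron number stays between 32.6 and 34.9 in control and goes from 26.9 to 21.7 after Taf4 inactivation.

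Exon neighbourhoods held a set of wide, weak members. Within 500 bp of an exon of the host transcript there were 56.1 members per Mb in control and 34.8 after Taf4 inactivation, against 29.4 and 22.9 farther away. Near exons the median width was 593 bp in control and 486 bp after Taf4 inactivation, against 482.5 and 425 bp farther away. Their median percentile of fold was 27.9 for control and 29.1 for Taf4 inactivation. Sharing near exons was lower in control, 32.6% (31.4 to 33.8) against 35.7% (34.9 to 36.5), and higher after Taf4 inactivation, 52.3% (50.6 to 53.9) against 46.7% (45.7 to 47.6). In control 23.0% of members reached into an exon, and after Taf4 inactivation 17.3% did. Windows near exons had 53.5 and 52.5% GC, against 52.0 and 50.5% farther away, and the part of base composition in these densities was not tested. Members over 1000 and up to 2000 bp from a start site numbered 1168 in control and 883 after Taf4 inactivation, with 36.8 and 49.5% shared, whereas the 2750 and 1962 later-intron peaks at 1000 bp or less, which were left out, had 51.6 and 67.9%.

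Genes with most members were long genes. Counts followed the length of later introns, with a Spearman rho of 0.56 in control and 0.54 after Taf4 inactivation across 16852 genes, given as a description. Camta1, encoding a calmodulin-binding transcription activator, led with 64 control and 47 Taf4-inactivated members in 753 kb of later intron, of which 21 and 22 had a partner. Arfip1 followed with 55 and 55, 26 with a partner in each, but its longest annotated transcript runs through 5 other protein-coding genes that lie whole in its introns, so these peaks need not belong to Arfip1. Cdh4, encoding R-cadherin, held 51 and 30. Sdk1, a gene of synaptic adhesion, held 51 and 27, and Dlgap2, encoding a postsynaptic scaffold, 50 and 28. Ptprn2, a phosphatase-like gene of secretory granules, held 47 and 31, and Shank2, a postsynaptic scaffold, 42 and 25. Slit3, a guidance ligand gene, held 39 and 27, Grid1, a glutamate receptor gene, 38 and 24, and Kalrn, a guanine nucleotide exchange factor gene, 31 and 30.

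In 9 of these 10 genes the control list held more members, and Arfip1 had equal numbers. The control list held 1.36 times as many members over the whole genome. Per 100 kb of later intron, Cdh4 had 11.5 control and 6.78 Taf4-inactivated members, Shank2 11.2 and 6.64, and Camta1 8.50 and 6.25. Kalrn was nearly level at 7.87 and 7.62. The median percentile of fold of Camta1 members was 25.2 in control and 18.8 after Taf4 inactivation, below the 40.0 and 39.8 of all members. Restricting both lists to a −log10 q from 2 upward left Camta1 with 17 and 15 members. The Taf4-inactivated list then held more in Kalrn, with 13 and 17, and in Ptprn2, with 10 and 12, and the control list more in the rest.

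**Figure D5:**
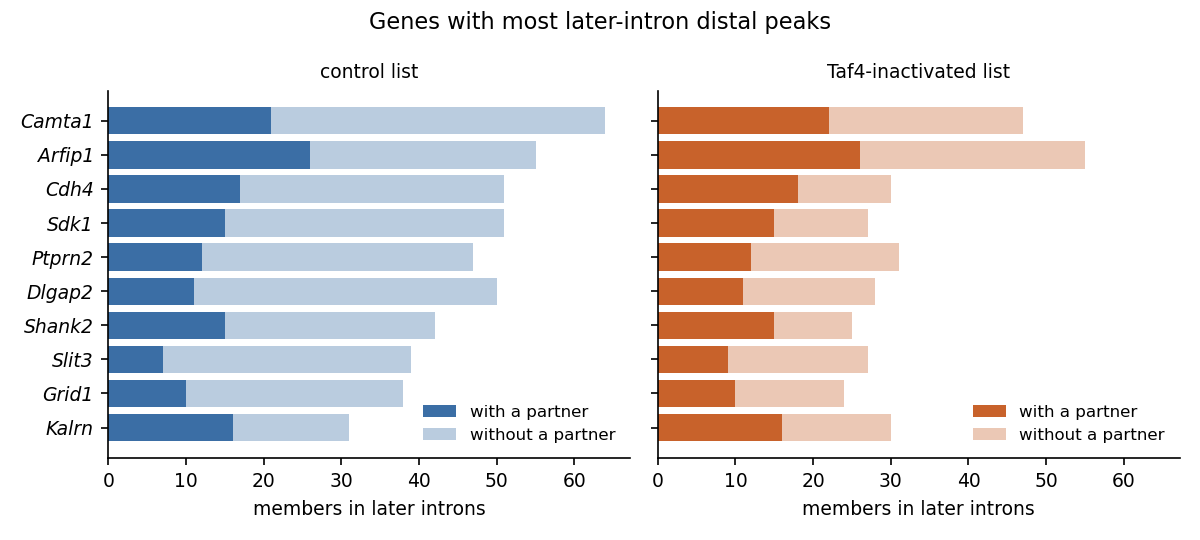
Members in later introns of the 10 genes with most of them over both lists, control left and Taf4-inactivated right. Bars start at 0 and count peaks, dark for those with a partner in the other list and pale for those without. Camta1 reaches 64 and 47. The dark parts have similar lengths in both panels, such as 16 and 16 for Kalrn, because overlap is mutual.

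Outside these 10 genes, Cdh13, Csmd2 and Col23a1 were the genes with most unpartnered control members, 27, 27 and 26 of 13098. Col23a1, a transmembrane collagen gene, had 31 control members with 5 shared and 11 Taf4-inactivated members with 5 shared. Csmd2, a large gene of the brain, had 35 with 8 shared and 19 with 6 shared, and Cdh13, encoding T-cadherin, 34 and 14 with 7 shared in each. The same rule gave, for Taf4 inactivation, Odz4, encoding a teneurin, with 18 members of which 3 were shared, Fstl4 with 21 of which 7 were shared, and Msi2, an RNA-binding protein gene of stem cells, with 27 of which 13 were shared. Each of the last 3 also had more control members, at 23, 28 and 34.

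Short genes led by density. Among genes with at least 6 members over both lists, Timp3, which encodes an inhibitor of matrix metalloproteinases, had the most per 100 kb, with 3 members in each list over 7.02 kb. All 6 had a partner. Its peak at 85802360 to 85802756 on chromosome 10 had a fold at percentile 94.8 in control and its partner was at 91.0. The second pair was at percentiles 60.6 and 77.5, and the pair in the fourth intron at 26.7 and 41.0. Next by density stood 1700018B08Rik with 3 and 3 members, C130026I21Rik with 3 and 3, and Armc10 with 4 and 2. The predicted gene Gm15319 on chromosome 8 followed, with 6 and 5 members over 20.3 kb, all with a partner.

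Of all genes with later introns, 4764 (28.3%) had members in both lists, 2077 in the control list alone, 1167 in the Taf4-inactivated list alone and 8844 in neither. The median length of later intron was 35.4 kb in genes with members in both and 4.81 kb in genes with none. In the targeted gene, annotated as Taf4a on chromosome 2, 2 control and 2 Taf4-inactivated members were found, and 1 of each formed a pair in the last intron (179651717 to 179652160 in control, percentile 42.6, and percentile 56.4 after Taf4 inactivation). Peaks in its introns do not report whether the floxed exons were deleted.

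Among lists of epithelial genes, density stood above that of all genes in both libraries, intervals included, for transcription factor, brush border and Wnt genes. Lists of genes were described against all protein-coding genes with later introns, where 28.3% had members in both lists and density was 34.1 per Mb in control and 25.007 per Mb after Taf4 inactivation. Density also goes down with the length of later introns, from 5.32 control members per 100 kb in genes with under 10 kb to 1.11 in genes with 500 kb or more, and list densities were not adjusted for it. Of 29 intestinal transcription factor genes, 18 had members in both lists, with 63.8 members per Mb in control (Poisson interval 50.5 to 79.6) and 58.2 after Taf4 inactivation (45.5 to 73.3). In this list 53.2% (41.6 to 64.5) of control and 56.9% (44.7 to 68.6) of Taf4-inactivated members had a partner, and 40.3% of the latter had a −log10 q of at least 5. Tcf7l2, the main nuclear effector of Wnt signals in crypts, held 19 and 12 members, of which 7 and 7 were shared. Tead1, the DNA-binding partner of YAP, held 15 and 12, 8 of each shared. Ppara, the nuclear receptor of fatty acid oxidation, held 8 and 6, 5 of each shared. Its strongest Taf4-inactivated member, in the second intron on chromosome 15 (85584505 to 85585303), stood at percentile 97.4 and the overlapping control member at 81.0.

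Brush border genes had members in both lists in 19 of 26 cases, at 47.8 (37.1 to 60.8) and 42.1 (32.1 to 54.3) per Mb. Myo5b, the motor of apical recycling, held 13 and 10 members, Eps8, an actin regulator of microvilli, 5 and 8, and Baiap2l1, a membrane-bending protein gene, 7 and 4. Of 38 genes of nutrient, bile acid and ion handling, 21 had members in both, at 37.7 per Mb (28.99 to 48.3) in control and 40.1 (31.1 to 50.9) after Taf4 inactivation, and 46.3% of the Taf4-inactivated members had a −log10 q of at least 5, beside 17.5% over all genes. Slc4a4, a bicarbonate transporter gene, held 5 and 7, and Abcc2, an export pump gene, 5 and 5. Dpp4, the brush border peptidase, held 3 control and 6 Taf4-inactivated members. Its 3 control peaks were at percentiles 71.5, 80.5 and 45.8 of the control list, and the 3 peaks paired with them at 97.2, 84.5 and 83.1 of the Taf4-inactivated list. The other 3 Taf4-inactivated members had no partner and lay at percentiles 58.6, 89.4 and 78.5.

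Wnt and crypt genes had members in both lists in 18 of 28 cases, at 67.1 per Mb in control (53.9 to 82.4) and 49.2 after Taf4 inactivation (38.0 to 62.6). Tiam1, a Rac activator, held 18 and 8 members, of which 2 and 4 were shared, Ephb2, the receptor that positions crypt cells, 12 and 7, and Lrp5, a Wnt coreceptor, 8 and 7. In the Notch and secretory list 9 of 24 genes had members in both, at 34.2 (24.9 to 45.9) and 31.9 (22.9 to 43.2) per Mb, close to all genes. There Maml3, a Notch coactivator, held 8 and 8, Pou2f3, the tuft cell factor, 7 and 6, and Notch2 7 and 6. Junction and adhesion genes had 18 of 31 in both, at 40.4 (31.5 to 51.03) and 35.2 (26.9 to 45.2) per Mb, and the shares with a partner were 55.7% (43.3 to 67.6) and 63.9% (50.6 to 75.8). There, Pard3, a polarity protein gene, held 14 and 11, Cgnl1, a junction protein gene, 8 and 6, and Cdh1, encoding E-cadherin, 7 and 7. In Cdh1, 4 of the 7 were paired, all in the second intron on chromosome 8, and the widest pair spanned 1496 bp in control and 1213 bp after Taf4 inactivation, at percentiles 91.3 and 81.4.

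Growth factor receptor and signalling genes had members in both lists in 15 of 28 cases, with 50 members in each list. Igf1r, the receptor of insulin-like growth factor, held 10 and 11, Mtor, the growth kinase, 8 and 4, and Insr, the insulin receptor, 3 and 6. Cell cycle and replication genes had members in both lists in 7 of 33 cases. They were sparse in control, with 15.9 members per Mb (9.73 to 24.6). After Taf4 inactivation they held 19.9 per Mb (12.9 to 29.4), an interval that includes the 25.007 of all genes. Cdk6, a kinase of the early cell cycle, held 4 and 7, Kdm2b, a histone demethylase gene, 4 and 3, and Parp1, a DNA damage sensor, 1 and 3, none of which was shared. Of 29 genes of TFIID, Polycomb and other chromatin complexes 8 had members in both lists, close to the share over all genes. Their density was 29.5 per Mb in control and 23.6 after Taf4 inactivation. Hdac4, a deacetylase gene, held 7 and 8, and Smarca2, a remodeler ATPase gene, 7 and 5 with none shared.

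Lists of genes of other cell types carried members too. Neuronal genes with long introns had members in both lists in 18 of 28 cases, but at 6.66 per Mb in control and 4.25 after Taf4 inactivation, the lowest density of the 12 lists. Cdh13 held 34 and 14, Dpp6, a potassium channel subunit gene, 19 and 12, and Dab1, an adaptor of Reelin signalling, 12 and 10. Immune cell genes held 38.3 and 23.2 per Mb. Pax5, the B cell factor, held 14 and 13, with 9 and 10 shared, Prkcb, a kinase of lymphocytes, 17 and 8, and Dock2, a Rac activator of leukocytes, 9 and 6. Mesenchymal, muscle and endothelial genes held 15.3 and 7.67 per Mb. Ebf2, a mesenchymal factor, held 15 and 3 with 1 shared in each, Flt1, an endothelial receptor, 10 and 5, and Myh11, the smooth muscle myosin, 10 and 4. In the immune and mesenchymal lists 2.33 and 1.56% of control members had a −log10 q of at least 5, and 5.77 and 9.38% of Taf4-inactivated members, beside 3.81 and 17.5% over all genes. Peaks in such genes do not show that these cells were present, and their part in the results was not tested.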

How the data were processed

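The authors sequenced 1 control and 1 Taf4-inactivated ATAC-seq library, mapped uniquely aligning reads to mm9 with Bowtie 1.0.0 and ran MACS2 2.1.1 in broad mode on each library by itself (versions from the submitters' processing notes, which also name bcl2fastq 2.17.1.14). The deposited score is the −log10 q multiplied by 10 without its decimals. The deposited fold is enrichment over the background of the same library. The deposited −log10 p and −log10 q are averages over a peak. The peak caller left at least 801 bp between peaks of a list.

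Positions were classed with the GENCODE annotation of the mm9 assembly, taking the transcript of greatest spliced length per gene. Overlaps came from bedtools 2.31.1. Sequences were read with samtools 1.23.1, and the rest was computed in Python 3.11.15, numpy 2.4.6, pandas 2.3.3, scipy 1.17.1 and matplotlib 3.10.9. Class, overlap, sequence and background steps were checked on simulated data. Members, gene lists and alternatives were chosen with earlier results of these data known. Named genes were the 10 with most members, the 3 per list with most unpartnered members, the 5 densest with at least 6 members, those of the strongest members and of the most different pairs, and the 3 with most members in each of 12 lists, of which 1 gene is not reported here. Symbols Sptan1 and Sptbn1 were matched to older symbols, and 1 listed gene was not matched. Of genes whose longest transcript was used, 1838 had a longest transcript that is not annotated as coding. Alternatives changed the q threshold, overlap, list length, transcript, start site distance, window and ranking value.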

Additional observations from a re-analysis of the deposited data

How the results depend on the processing

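No paired analysis was possible because each genotype had 1 library, and leaving a library out would leave no comparison. Of 63 main values under alternatives, 27 stayed within counting error, or within 1.5 times for counts. Choosing the transcript by genomic span kept numbers, shares, widths and densities within these limits, choosing it among coding ones kept numbers, shares and widths, and leaving out midpoints in any exon kept numbers and shares. Widths also stayed the same on joining peaks within 500 bp, by construction, since peaks of a list lie at least 801 bp apart. Numbers moved with the q threshold, to 7510 control and 7953 Taf4-inactivated members at a −log10 q of at least 2 (12.7 and 13.5 per Mb) and to 762 and 2583 at 5, so that the longer list changed. The share with a partner in control was 18.3% at 50% overlap of both peaks, 37.3% with a gap of 500 bp allowed, 41.2% and 82.0% with a −log10 q of at least 2 and 5 in both lists, 46.7% in lists of 20000 peaks, and 97.2% when control members at 5 or more were set against the whole Taf4-inactivated list, the last chosen after seeing the data. In the same order the Taf4-inactivated share was 24.95, 51.3, 39.5, 24.2, 39.8 and 76.0%. The Taf4-inactivated share was thus the higher under the overlap settings and the lower wherever both lists were cut by q or fold. Overlap is mutual, so the number with a partner is close in both lists and the share is higher where members are fewer. Control members were the fewer after each such cut, with 762 against 2583 at 5 and 2348 against 2754 in lists of 20000 peaks. Median width was 453.5 and 402 bp at a −log10 q of at least 2, and 626 and 485 bp at 5, wider in control each time. The log2 width difference of pairs turned to 0.0033 at 50% overlap, and was −0.015 with a −log10 q of at least 2 in both lists. The rank difference was −3.78 points when ranked by −log10 p. Windows of 300 bp held AP-1 matches in 10.4 and 14.2% of control and Taf4-inactivated members, HNF4 in 0.797 and 1.69%, GATA in 11.6 and 14.8%, SP/KLF in 7.93 and 8.44%, and CTCF in 0.981 and 2.46%, with the order of the lists kept. Genes with members in both lists numbered 2707 at a −log10 q of at least 2. Of the 10 genes with most members, 5 were kept at that threshold, 7 with transcripts by span and 9 with coding transcripts, the last an alternative chosen after seeing the data. With transcripts by span Fgfr2, which is not among the 10 of the main setting, led with 183 and 129. Whether that transcript of Fgfr2 runs through other genes was not tested, so these peaks need not belong to Fgfr2.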
